A study of Mus musculus with 8 samples.

Results

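The 10 genes described here encode proteins of desmosomes and tight junctions, and were picked by name: Dsp, Dsg2, Dsc2, Pkp2, Jup, Epcam, Cldn6, Cldn7, Tjp1 and Ocln. All 10 were found among the 43346 gene identifiers of the count tables. They were followed through 8 libraries of notochord-derived cells (NDCs) from Shh-cre;ROSA:YFP mice, 4 litters at embryonic day 12.5 (E12.5) and 4 at birth (P0), with the animals of a litter pooled. In this line Cre under the control of the Shh gene switches on YFP, so the label marks cells that express Shh or once did, in notochord and in other Shh-expressing tissues such as gut and floor plate. The E12.5 samples were intact notochords dissected free and lysed without sorting. The P0 samples were nucleus pulposus (NP) cells shaken loose from opened discs, strained and sorted for YFP. Stage and isolation therefore cannot be told apart. The E12.5 litters were NDP10-2, NPD3, NPD4 and NPD9-2, and those at P0 were NPD26, NPD27, NPD28 and NPD30.

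Desmosomes are spot junctions that tie the keratin filaments of neighboring cells together. Their cadherins, the desmogleins and desmocollins, meet across the gap between cells and bind plakoglobin and plakophilins inside, which in turn bind desmoplakin and through it the keratins. Tight junctions seal the space between epithelial cells with claudins and occludin, held by zonula occludens scaffolds. Notochordal cells are known for their keratins and for staying in tight contact with each other, both as a rod in the embryo and as clusters in the disc.

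Members of the 2 junctions that changed between the stages did so in opposite directions. The desmosomal cadherins Dsg2 and Dsc2 and the plakin Dsp were higher at P0, by 5.81-fold, 6.00-fold and 4.26-fold. The claudin Cldn6, the adhesion molecule Epcam and the scaffold Tjp1 were lower at P0, by 22.1-fold, 5.14-fold and 2.22-fold. Pkp2, Jup and Cldn7 did not pass the test, and Ocln had too few reads to be tested. Thus 6 of the 9 members tested were called at an adjusted p under 0.05, where 27.9% of the 15467 genes tested were. The members were chosen with earlier results of these data known, so their shares are set beside those of all genes as a description only. The 3 that rose compare with 16.0% of all genes tested, and the 3 that fell with 12.0%. That balance over all genes, 2468 higher and 1853 lower, turned to 2105 higher and 2322 lower under upper quartile normalization, which changed no member's call. All 6 also changed by more than 2-fold, as 24.6% of all genes tested did. In 2 of the 9 every P0 litter lay above every E12.5 litter and in 3 every P0 litter lay below, against 15.5% and 14.4% of all genes tested. The median log2 fold change of the 9 was -0.20, beside 0.04 over all genes tested. NDP10-2 and NPD9-2 stood apart in the counting, with 22.6% and 24.6% of tallied reads on genes, where the other 6 libraries had 30.9% to 34.8%. Without both, the 6 kept their direction and none was called, with adjusted p between 0.0535 and 0.118. Fold changes are P0 over E12.5 from edgeR's quasi-likelihood test, with Benjamini-Hochberg adjustment of p over all genes tested. Levels are in CPM, the count of a gene scaled to the normalized size of its library.

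**Figure D1:**
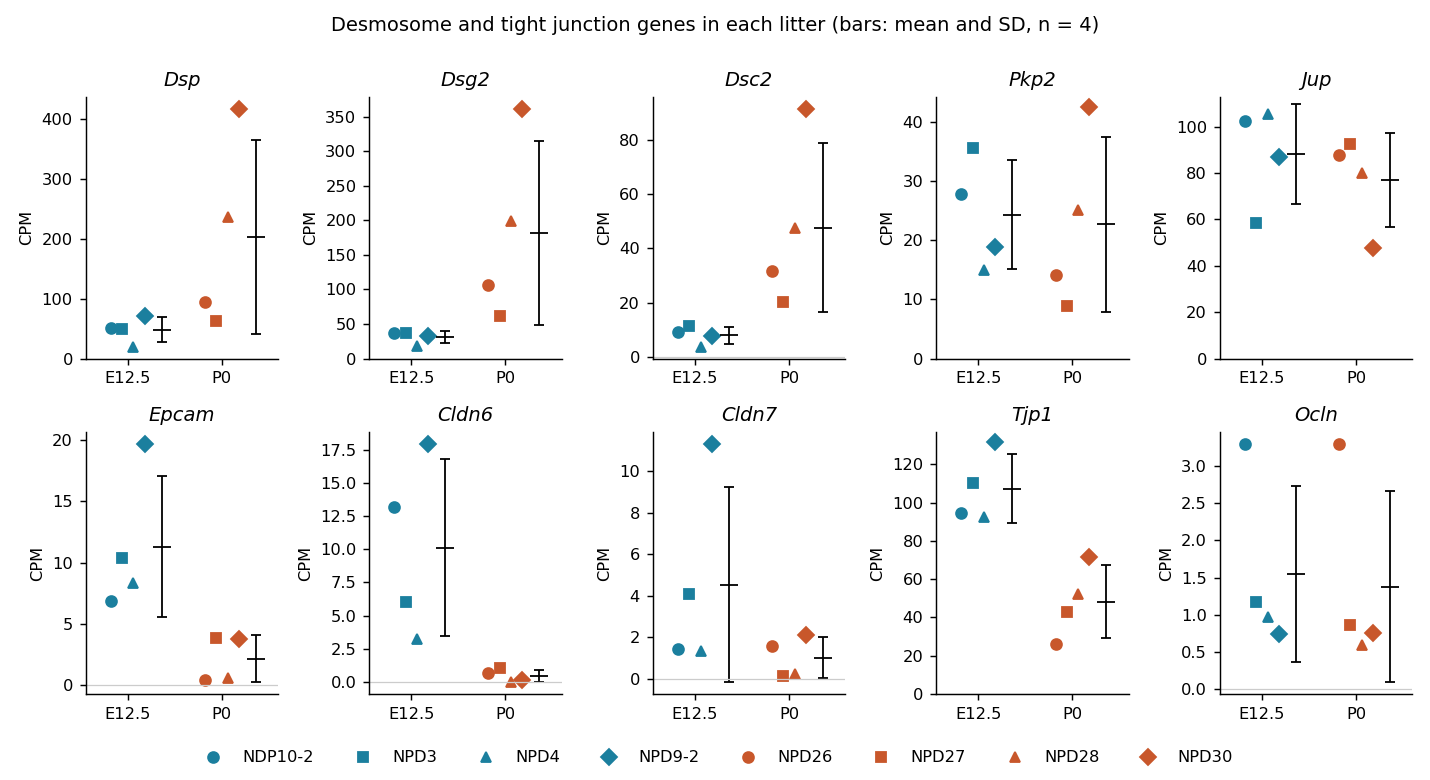
Level of each of the 10 genes in CPM (vertical axes, each from about 0 on its own scale) in the 4 E12.5 litters (blue) and 4 P0 litters (orange), with the mean and SD of each stage as black bars. Dsg2 and Dsc2 lay higher in every P0 litter and Epcam, Cldn6 and Tjp1 lower, whereas the stages overlapped for the other 5.

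Dsg2 (GRCm38, chr18:20558074-20604521, plus strand) encodes the desmoglein of simple epithelia and heart. Its level was 37.5, 36.9, 18.0 and 33.2 CPM in NDP10-2, NPD3, NPD4 and NPD9-2, and 106, 61.1, 199 and 362 CPM in NPD26, NPD27, NPD28 and NPD30. The lowest P0 litter was above the highest E12.5 litter, and the P0 litters themselves spread widely. The log2 fold change was 2.54 (SE 0.51, adjusted p = 0.00486).

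Dsc2 (chr18:20030633-20059554, minus strand) encodes the widely expressed desmocollin, the partner of Dsg2 across the junction. It was counted at 9.20, 11.3, 3.87 and 7.62 CPM in the E12.5 litters and at 31.6, 20.3, 47.3 and 91.4 CPM in the P0 litters, in the same litter order. The stages did not overlap, and the log2 fold change was 2.58 (SE 0.50, adjusted p = 0.00363). Dsg2 and Dsc2 ranked the P0 litters alike, from NPD27 through NPD26 and NPD28 to NPD30. The log2 ratio of Dsg2 to Dsc2 was 2.00 ± 0.22 (SD, n = 4) at E12.5 and 1.85 ± 0.22 (SD, n = 4) at P0, and the difference did not pass a two-sided exact permutation test over litters (p = 0.314, 0.429 after adjustment over the 5 pairs of members compared).

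Dsp (chr13:38151294-38198577, plus strand) encodes desmoplakin, the plakin that every desmosome needs. Its level was 51.2, 49.0, 19.9 and 70.6 CPM at E12.5 and 93.7, 62.9, 236 and 417 CPM at P0. NPD27 lay below NPD9-2, so the stages overlapped, and the log2 fold change of 2.09 (SE 0.60, adjusted p = 0.0264) was the least secure of the 3 rises. It lost its call when NDP10-2, NPD3, NPD4, NPD28 or NPD30 was left out, with adjusted p between 0.0540 and 0.0672, and fell to 0.72 (adjusted p = 0.214) without NPD28 and NPD30 together. Without those 2 litters Dsg2 stood at 1.41 and Dsc2 at 1.69 on the log2 scale, and both kept their calls. Without NPD30 alone the log2 fold changes of Dsp and Dsg2 were 1.42 and 1.92.

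Pkp2 (chr16:16213318-16272712, plus strand) encodes plakophilin 2, an armadillo protein that links the cadherins to desmoplakin. It was counted at 27.8, 35.7, 14.99 and 18.9 CPM at E12.5 and at 14.2, 8.94, 25.1 and 42.6 CPM at P0. The stages overlapped and the log2 fold change was -0.10 (SE 0.46, adjusted p = 0.898), and -1.09 (adjusted p = 0.0821) without NPD28 and NPD30. Within P0, NPD27 was again lowest and NPD30 highest.

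Jup (chr11:100368958-100397763, minus strand) encodes plakoglobin, the armadillo protein that desmosomes share with adherens junctions. Its levels of 102, 58.3, 105 and 86.8 CPM at E12.5 and 87.6, 92.6, 79.8 and 47.5 CPM at P0 overlapped, with a log2 fold change of -0.20 (SE 0.28, adjusted p = 0.634). Jup was lowest in NPD30, the litter in which the other 4 desmosome members were highest. The log2 ratio of Dsp to Jup was -0.99 ± 1.001 (SD, n = 4) at E12.5 and 1.06 ± 1.64 (SD, n = 4) at P0, and that of Pkp2 to Jup -1.89 ± 0.88 and -1.95 ± 1.38. Neither difference passed the exact permutation test (p = 0.0857 and 0.943), for which 0.0286 is the smallest p that 4 litters against 4 allow. A single pair among the 5 could reach no adjusted p under 0.143, so a miss does not show that the ratios were alike.

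Set against exon length, Jup stood first among the desmosome members at E12.5 with 13.7 ± 3.35 CPM per kb (SD, n = 4). Dsp at 4.94 ± 2.16, Pkp2 at 4.55 ± 1.73 and Dsg2 at 3.80 ± 1.10 CPM per kb followed within their spread, and Dsc2 was last at 1.52 ± 0.60 CPM per kb. At P0 the order was Dsg2 with 22.0 ± 16.1, Dsp with 20.96 ± 16.7, Jup with 11.9 ± 3.15, Dsc2 with 9.03 ± 5.91 and Pkp2 with 4.23 ± 2.78 CPM per kb. Neighbors in the P0 order lay within the spread of each other.

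Of the 13 other desmosome genes, 8 were tested, 3 rose and 1 fell, where 16.0% of all genes tested rose and 12.0% fell, and the median log2 fold change was 0.04. Dsc3, a desmocollin of stratified epithelia, was counted at 1.18, 0.780, 0 and 0.738 CPM at E12.5 and at 78.8, 40.5, 101 and 157 CPM at P0. Its log2 fold change of 7.26 (SE 0.72, adjusted p = 0.000174) was larger than that of any member, but its E12.5 level rested on 12 reads in all. Pkp1, a plakophilin also known from stratified epithelia, went from 0.472 to 4.67 CPM over the E12.5 litters to 14.3 to 95.5 CPM over the P0 litters (log2 fold change 4.43, SE 0.72, adjusted p = 0.00183). Perp, a membrane protein that desmosomes need for stability, rose by 3.04 on the log2 scale (SE 0.45, adjusted p = 0.00104). Periplakin (Ppl), a plakin of the cornified envelope, fell (log2 fold change -3.02, SE 0.53, adjusted p = 0.00227). Pkp4 and envoplakin (Evpl) did not pass the test, with log2 fold changes of -0.17 and -0.12. The desmogleins of skin, Dsg1a, Dsg1b, Dsg1c and Dsg4, and the desmocollin Dsc1 were too low to be tested.

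The make-up of the desmocollin family thus differed between the stages. Per exon length, Dsc2 made up 88.9% to 100% of desmocollin reads in the E12.5 litters and 28.6% to 37.4% in the P0 litters, and Dsc3 went from 0% to 11.1% to between 62.6% and 69.6%. Among the desmogleins Dsg2 held 83.8% to 99.2% in the E12.5 litters and 92.1% to 97.3% in the P0 litters. Among the plakophilins Pkp2 held 20.6% to 27.8% and then 9.33% to 21.2%, while Pkp1 went from 0.487% to 5.63% to between 15.9% and 50.6%. The 9 desmogleins and desmocollins together summed to 22.0 to 52.7 CPM at E12.5 and 126 to 617 CPM at P0. These shares and sums are descriptions without a test.

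**Figure D2:**
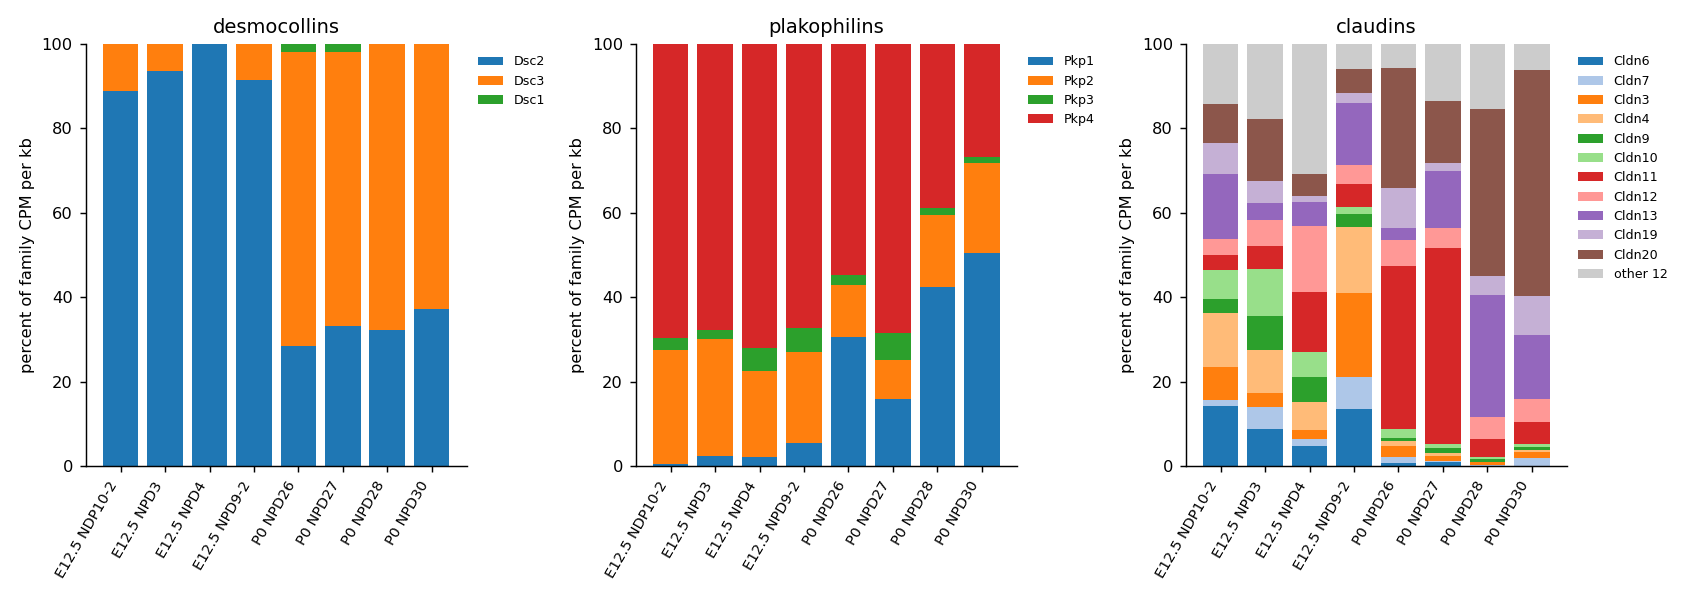
Share of each gene in the reads of its family after division by exon length (percent, vertical axes) for desmocollins, plakophilins and claudins in each litter, with the remaining claudins in grey. Dsc3 took over from Dsc2 as the leading desmocollin in all 4 P0 litters, and the share of Cldn6 shrank to at most 1.07%.

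The libraries also differed in what cells they held, and in bulk RNA fewer cells of a type cannot be told apart from less RNA per cell. All 9 notochord markers were counted at both stages, with sums of 1687 to 4007 CPM at E12.5 and 1969 to 6935 CPM at P0. Of these, Shh and Foxa1 fell (log2 fold changes -7.14 and -2.23), Krt19 and Cd24a rose (1.74 and 1.33), T, Krt8, Krt18 and Foxa2 did not pass the test (1.18, 0.58, -0.87 and -0.77), and Noto was at 0 or near it in every litter. Leukocyte markers rose in 7 of 7 genes, from sums of 40.2 to 80.9 CPM to 1975, 2328, 2598 and 219 CPM in NPD26, NPD27, NPD28 and NPD30. Markers of red cells summed to 8159 to 32996 CPM at E12.5 and 37.1 to 79.9 CPM at P0, and those of sclerotome to 134 to 205 CPM and 6.24 to 21.5 CPM. Markers of endothelium summed to 74.3 to 154 CPM and 24.6 to 118 CPM, of neural tube to 35.5 to 607 CPM and 82.6 to 214 CPM, and of kidney duct to 17.6 to 32.5 CPM and 48.9 to 81.9 CPM. Chondrocyte markers, many of which notochordal cells also make, overlapped at 2328 to 8195 CPM and 1755 to 8002 CPM, and osteoblast markers stood at 29.4 to 84.1 CPM and 317 to 658 CPM. The part of these cells in the results was not tested.

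The desmosome genes were also read as a percent of the summed level of T and Krt8, a measure chosen after the values had been seen. T and Krt8 are 2 of the 4 notochord markers that were tested and did not pass, and other markers moved either way. The sum of T and Krt8 was 1434, 801, 1815 and 3178 CPM in NPD26, NPD27, NPD28 and NPD30, the order in which Dsp, Dsg2 and Dsc2 ranked these litters. On this scale Dsg2 lay between 2.46% and 5.44% in the E12.5 litters and between 7.41% and 11.4% in the P0 litters, and Dsc2 at 0.603% to 1.25% and 2.21% to 2.88%, again without overlap. Dsc3 was within 4.93% to 5.57% in the P0 litters, although its CPM there ran from 40.5 to 157. Dsp still overlapped, at 3.35% to 11.6% and 6.54% to 13.1%. Pkp2, which overlapped in CPM, was lower in every P0 litter on this scale, at 1.82% to 4.11% and 0.987% to 1.38%, but that rested on the choice of markers. Against each of 8 notochord markers singly, Pkp2 was lower in every P0 litter for 3, higher for 2 and overlapped for 3. Dsg2 was higher in every P0 litter for 6 of the 8, Dsc2 for 7, Dsp for 4, and Dsc3, Pkp1 and Perp for all 8. The 8 include Shh and Foxa1, which fell themselves, so a member read against them tends to come out higher at P0. Against Shh every member but Cldn6 did so. Krt19 and Cd24a rose themselves, so a member read against them tends to come out lower at P0. Among the single markers, Pkp2, Epcam and Tjp1 were lower in every P0 litter against T, Krt19 and Cd24a only. T and Krt8 had positive log2 fold changes (1.18 and 0.58), and Krt18 and Foxa2 negative ones (-0.87 and -0.77). Against T, Krt8, Krt18 and Foxa2, which did not pass the test, Dsg2 and Dsc2 were higher in every P0 litter. Dsp was so against Krt18 and Foxa2 only. Against the sum of all 9 markers, Dsg2 and Dsc2 were higher in every P0 litter and Pkp2 lower, by a narrow gap of 0.660% to 0.695%. Of the members that fell, Cldn6 and Tjp1 were lower in every P0 litter against T plus Krt8. Epcam overlapped there, at 0.448% to 3.22% and 0.0324% to 0.486%. Against the single markers Cldn6 was lower in every P0 litter for 5 and overlapped for 3. Epcam and Tjp1 were each lower for 3, higher for 1 and overlapped for 4. Jup overlapped for 7 and was higher for 1.

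**Figure D3:**
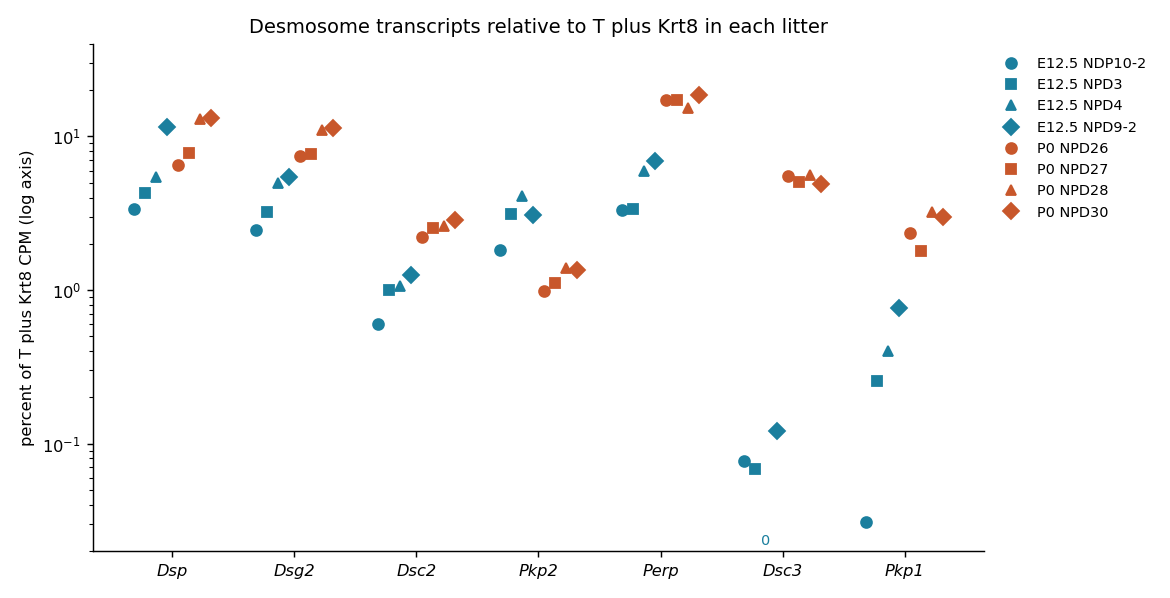
Level of 7 desmosome genes as a percent of the summed CPM of T and Krt8 (log axis) in each E12.5 litter (blue) and P0 litter (orange), with a litter without reads marked 0. On this scale Dsg2, Dsc2, Perp, Dsc3 and Pkp1 were higher in all 4 P0 litters, Pkp2 was lower in all 4, which did not hold against every notochord marker, and Dsp overlapped.

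Epcam (chr17:87635979-87651129, plus strand) encodes an adhesion molecule of epithelial membranes that binds claudin 7. It was counted at 6.84, 10.3, 8.34 and 19.7 CPM at E12.5 and at 0.472, 3.89, 0.589 and 3.79 CPM at P0. The stages did not overlap and the log2 fold change was -2.36 (SE 0.69, adjusted p = 0.0260). The call was lost when NPD9-2, NPD26 or NPD28 was left out, with adjusted p of 0.0788, 0.0548 and 0.0519. At P0 the gene rested on 60 reads in the 4 litters together, and NPD26, with 3 reads, was at the 3-count floor that was taken as the smallest visible signal.

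Cldn6 (chr17:23679249-23682446, plus strand) encodes a claudin of embryonic epithelia. Its level was 13.2, 6.05, 3.26 and 18.0 CPM at E12.5 and 0.629, 1.01, 0 and 0.152 CPM at P0. The P0 litters held 12 reads in all, and NPD28 and NPD30 with 0 and 1 were under the floor. The log2 fold change of -4.46 (SE 0.88, adjusted p = 0.00382) was the largest in size among the members, and stood at -5.25 without NPD27, the P0 litter with the most Cldn6 reads.

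Cldn7 (chr11:69964779-69967885, plus strand) encodes a claudin found along the sides of epithelial cells. It was low in both stages, at 1.42, 4.10, 1.33 and 11.3 CPM at E12.5 and 1.57, 0.144, 0.235 and 2.12 CPM at P0. The stages overlapped, and the log2 fold change of -2.14 (SE 0.94, adjusted p = 0.114) did not pass the test. The log2 ratio of Cldn6 to Cldn7 was 1.40 ± 1.19 (SD, n = 4) at E12.5 and -1.12 ± 2.45 (SD, n = 4) at P0, a difference of -2.52 that did not pass the exact permutation test (p = 0.114).

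Epcam and claudin genes are textbook targets of Snail and Zeb repressors, which bind E-box letters of the form CACCTG or, on the other strand, CAGGTG. The letters were searched, after the values had been seen, in RefSeq windows (GRCm38.p6) from 250 bases before to 50 after each transcript start. The 7 members with an entry had 9 windows, of which 6, belonging to Dsp, Ocln, Cldn6, Cldn7 and Epcam, held the letters (66.7%), beside 20.2% of all 32851 windows. The windows of Ocln overlap and share a match. By gene, 5 of the 7 held the letters, beside 6098 of 27025 genes with a window. The difference was not tested. Dsp, which rose, held the letters as well as Epcam and Cldn6, which fell, whereas the windows of Tjp1 and Jup did not. The stretches of 30 bases around 6 of the matches are shown, 5′ to 3′ on the gene's strand. They come from Epcam and Cldn6, which fell, Dsp, which rose, and Cldn7, which was not called, and those of Ocln are left out. The E-box letters are in capitals, and the distance of their first base from the RefSeq start is in the name.
Epcam, 187 bases before the start, chr17:87635780-87635809: gccagtagggccCACCTGctggaggaccgg
Epcam, 19 bases before the start, chr17:87635948-87635977: acccataaaaccCAGGTGtggaggagaagc
Cldn6, 93 bases before the start, chr17:23679260-23679289: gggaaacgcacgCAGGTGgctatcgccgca
Cldn7, 97 bases before the start, chr11:69965312-69965341: tttcttcctcttCACCTGgacgaggagggg
Cldn7, 57 bases before the start, chr11:69965352-69965381: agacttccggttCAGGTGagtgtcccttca
Dsp, 4th base of the transcript, chr13:38151285-38151314: gaagaagccgacCAGGTGtggcctgggcgc
The 2 Epcam matches lay outside the gene as Gencode M21 draws it, and those of Cldn6, Cldn7 and Dsp in annotated exons with untranslated sequence, the gene as drawn by Gencode starting upstream of the RefSeq start for Cldn6 and Cldn7. A match describes the letters only and does not show binding.

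Of the 21 other claudins found, 11 were tested, 1 rose and 4 fell, beside the same 16.0% and 12.0% of all genes, with a median log2 fold change of -0.60. Cldn4, a claudin of simple epithelia, was counted at 4.71 to 21.9 CPM at E12.5 and at 0 to 1.10 CPM at P0 (log2 fold change -4.44, SE 0.80, adjusted p = 0.00257, and -5.04 without NPD26). Cldn3 and Cldn9 had log2 fold changes of -2.86 and -2.42 (adjusted p = 0.0383 and 0.00812), although Cldn3 overlapped between stages and lost its call in 6 of the 8 fits that left out a litter, all but those without NPD3 or NPD4. Without NPD9-2 its log2 fold change was -1.53 (adjusted p = 0.191), and without NDP10-2 and NPD9-2 -0.65 (adjusted p = 0.631). Cldn20, on the other hand, rose by 1.99 (SE 0.51, adjusted p = 0.0138), from 1.33 to 3.90 CPM to between 5.34 and 20.2 CPM, and lost its call in the 3 fits that left out 2 litters (adjusted p of 0.0824 to 0.121). Cldn12, Cldn19 and Cldn11, the claudins with the highest average level, did not pass the test. Cldn11 was counted at 36.6 and 47.6 CPM in NPD26 and NPD27 but at 2.94 and 5.46 CPM in NPD28 and NPD30, and passed the test without NPD28 (log2 fold change 2.19, adjusted p = 0.0386). Per exon length, Cldn3, Cldn4, Cldn6, Cldn7 and Cldn9 together made up 21.2% to 59.7% of claudin reads at E12.5 and 1.69% to 6.60% at P0, and Cldn6 alone 4.80% to 14.3% and 0% to 1.07%. The sum over all 23 claudins, 83.9 to 135 CPM at E12.5 and 59.0 to 97.2 CPM at P0, overlapped.

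Markers of skin ectoderm were lower at P0, as were Epcam, Cldn6 and 4 of the 11 other claudins tested. All 6 of them (Krt5, Krt14, Krt15, Krt17, Trp63 and Sfn) were counted at both stages, 5 fell and none rose, and they summed to 45.7 to 136 CPM at E12.5 and 1.52 to 10.9 CPM at P0. NPD9-2 had the highest sum and also the highest level of Epcam, Cldn6, Cldn7 and Tjp1, while NPD4, with the lowest E12.5 sum, had the lowest Cldn6 and Cldn7 at E12.5. Epcam was lowest at E12.5 in NDP10-2 (6.84 CPM), where the skin ectoderm sum was 80.7 CPM. Sclerotome markers also summed highest in NPD9-2 (205 CPM) and lowest at E12.5 in NPD4 (134 CPM). Red cell and gut and lung sums peaked in NPD9-2 too, at 32996 and 373 CPM, as did the leukocyte sum within E12.5, at 80.9 CPM. At E12.5 the notochord, chondrocyte, osteoblast, neural tube, endothelium and kidney duct sums peaked in other litters. Krt5 was counted at 12.7 to 49.2 CPM at E12.5 and at 0 to 0.786 CPM at P0. Markers of gut and lung summed to 28.1 to 373 CPM and 3.53 to 10.5 CPM, nearly all from Afp at E12.5, with Sftpc and Cdx2 at or near 0. Muc13 of that list went the other way, from at most 0.121 CPM to between 1.88 and 4.87 CPM (log2 fold change 5.63, adjusted p = 0.00123). How much of the Epcam and claudin signal came with these cells was not tested.

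**Figure D4:**
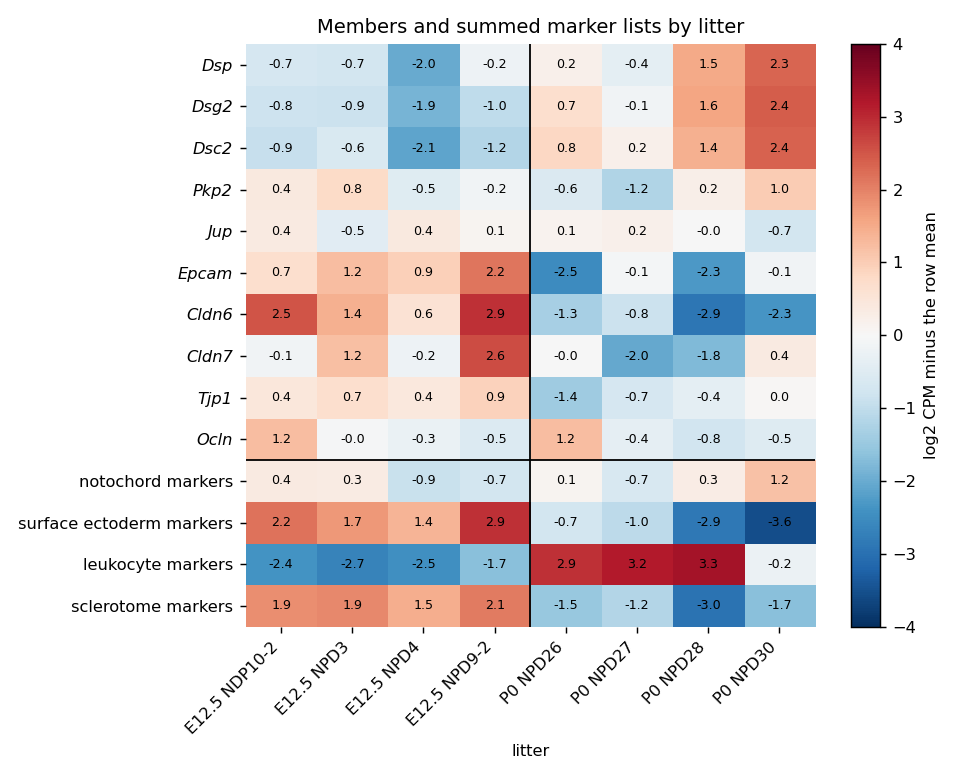
Log2 CPM of the 10 members and log2 summed CPM of 4 marker lists, each minus its mean over the 8 litters (color, from -4 to 4), with E12.5 litters left and P0 litters right of the line. Dsp, Dsg2 and Dsc2 reached their highest values in NPD28 and NPD30, and Epcam and Cldn6 were highest in NPD9-2, as were the sums of the surface ectoderm and sclerotome markers.

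Tjp1 (chr7:65296165-65527781, minus strand) encodes ZO-1, the scaffold that ties claudins and occludin to actin and that adherens junctions also use. Its level was 94.6, 110, 92.6 and 132 CPM at E12.5 and 25.9, 43.0, 52.4 and 71.4 CPM at P0. Every P0 litter lay below every E12.5 litter, and the log2 fold change was -1.15 (SE 0.30, adjusted p = 0.0151). The call held in each of the 8 fits that left out a litter, with adjusted p between 0.00310 and 0.0430.

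Ocln (chr13:100496507-100552718, minus strand) encodes occludin, a membrane protein of the tight junction strand. It was counted at 3.30, 1.17, 0.967 and 0.738 CPM at E12.5 and at 3.30, 0.865, 0.589 and 0.758 CPM at P0, with 31 and 37 reads in all. The stages overlapped, and a difference was not detectable at this depth. The log2 ratio of Tjp1 to Ocln was 6.25 ± 1.04 (SD, n = 4) at E12.5 and 5.31 ± 1.63 (SD, n = 4) at P0, and the difference did not pass the exact permutation test (p = 0.343).

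Per exon length, Tjp1 was the highest of the tight junction members and Epcam at both stages, at 13.7 ± 2.31 CPM per kb at E12.5 and 6.17 ± 2.43 at P0 (SD, n = 4). Cldn6 at 5.88 ± 3.89, Epcam at 5.15 ± 2.63 and Cldn7 at 2.33 ± 2.41 CPM per kb followed at E12.5, within the spread of each other, and Ocln was last at 0.366 ± 0.281. At P0 Epcam, Cldn7, Ocln and Cldn6 lay between 0.260 and 0.996 CPM per kb and did not differ beyond their spread.

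Of the 23 other tight junction genes, 19 were tested, 11 fell and none rose, beside 12.0% falling over all genes tested, and their median log2 fold change was -1.01. Lsr, the angulin of tricellular corners, was lower by a log2 fold change of -3.82 (SE 0.54, adjusted p = 0.000769), going from 9.91 to 36.3 CPM to between 0.721 and 2.58 CPM. Jam3, a junctional adhesion molecule, was counted at 80.0 to 85.3 CPM at E12.5 and at 10.9 to 20.6 CPM at P0 (log2 fold change -2.52, SE 0.25, adjusted p = 0.000142). Pard3, a polarity scaffold, fell by 2.33 (SE 0.32, adjusted p = 0.000645). Its partner kinase Prkci, the scaffold Pals1 and the RNA-binding protein Ybx3 did not pass the test, with log2 fold changes of -0.25, 0.41 and 0.26.

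**Figure D5:**
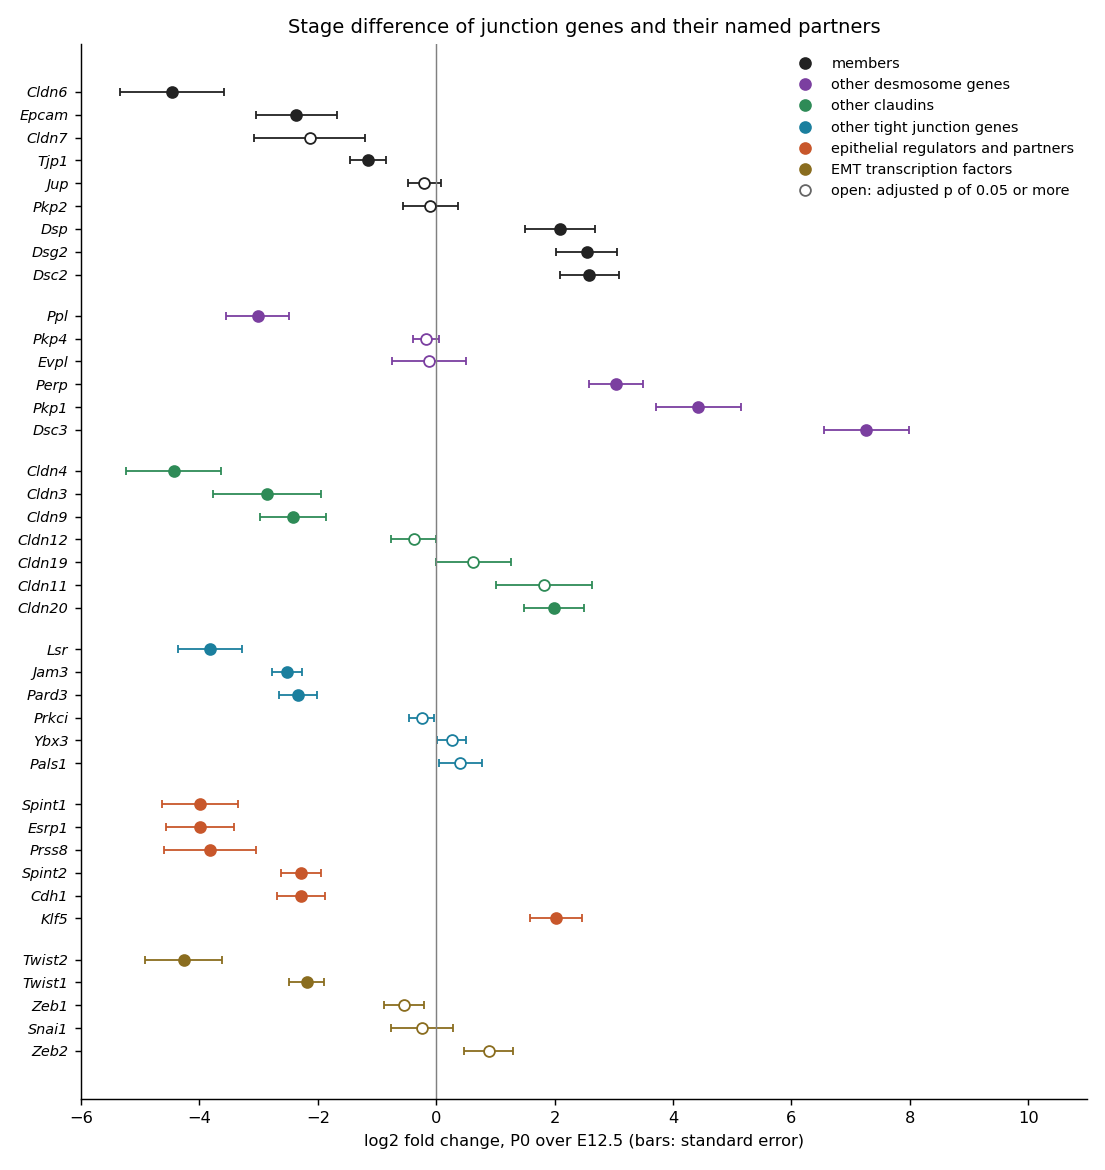
Log2 fold change, P0 over E12.5 (horizontal axis, bars are standard errors), of the 9 members tested and of the named genes of 5 companion lists, with open points for an adjusted p of 0.05 or more. Desmosome genes held the points furthest to the right, from Dsp at 2.09 to Dsc3 at 7.26, and Cldn6 at -4.46 lay furthest to the left.

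Of 17 epithelial regulators and partners, 13 were tested, 8 fell and 1 rose, beside 12.0% and 16.0% of all genes tested, with a median log2 fold change of -2.29. Among those that fell were the splicing factor Esrp1 (-3.99, adjusted p = 0.000828) and the membrane protease Prss8 (-3.82, adjusted p = 0.00454, and -4.72 without NPD26). The inhibitors Spint1 (-3.99, adjusted p = 0.00145) and Spint2 (-2.29, adjusted p = 0.000873), which control the proteases that cut Epcam and claudin 7, fell as well. E-cadherin (Cdh1), the cadherin of epithelial adherens junctions, fell by 2.28 (SE 0.40, adjusted p = 0.00213). Klf5, an epithelial transcription factor, was the single gene of the list that rose, by 2.02 (SE 0.44, adjusted p = 0.00669). Cdh1 was counted at 46.5 CPM in NPD9-2 and at 15.1 to 19.3 CPM in the other E12.5 litters. It thus was highest in the litter with the highest sums of skin ectoderm, sclerotome, red cell and gut and lung markers. That litter also had the highest leukocyte sum at E12.5.

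Of the 6 repressors of epithelial genes, all were tested, 2 fell and none rose, beside 12.0% and 16.0% of all genes tested, with a median log2 fold change of -0.72. Twist2 and Twist1, which are also genes of the early mesenchyme, had log2 fold changes of -4.27 and -2.19 (adjusted p = 0.00111 and 0.000560), as the sclerotome markers did, and Twist2 stood at -5.07 without NPD27. Zeb2, Zeb1 and Snai1 did not pass the test, with log2 fold changes of 0.88, -0.55 and -0.24. Zeb2 was lowest at P0 in NPD30 at 105 CPM, the P0 litter with the lowest leukocyte sum, and between 291 and 427 CPM in the other 3. Without NPD30 both Zeb2 and Zeb1 passed the test, with log2 fold changes of 1.13 and -0.97 (adjusted p = 0.0180 and 0.0244). Without NPD28 and NPD30 Snai1 passed it too, at -1.48 (adjusted p = 0.0198).

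The genes whose profile over the 8 litters lay closest to the mean profile of the 5 desmosome members were Me1, Mxra8, Sspn, Shisa6 and Gcfc2, at root mean square distances of 0.154 to 0.180 in log2 CPM, where the median gene was at 0.982. That mean averages Dsp, Dsg2 and Dsc2 (log2 fold changes 2.09 to 2.58) with Pkp2 and Jup (-0.10 and -0.20). The 5 nearest genes had log2 fold changes of 1.01 to 1.40, unlike any single member. For Epcam, Cldn6, Cldn7 and Tjp1 the nearest genes were Igfbp3, Hunk, Smpx, Fbln2 and D630045J12Rik, at distances of 0.220 to 0.324, where the median was 1.38. The mean level of Mxra8 was 41.4 CPM in the E12.5 litters and 109 CPM in the P0 litters, and that of Igfbp3 62.9 and 11.9 CPM.

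Dsp and Dsg2 each overlap an antisense gene, Gm10129 over 5.17% and Gm16090 over 3.99% of their exon length, and whether the counting used strand is not given in the sources used here. The antisense genes themselves were counted at no more than 1.87 and 1.17 CPM. Reads that fell on more than 1 gene were left uncounted by the authors' counting and made up 10.6% to 17.5% of tallied reads at E12.5 and 7.07% to 10.5% at P0.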

How the data were processed

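RNA-seq libraries of 4 E12.5 and 4 P0 litters, grouped by their labels, were analysed. The authors aligned reads to GRCm38 (STAR 2.4.0j), ran htseq-count against Gencode M4 and deposited the resulting gene counts unnormalized. Totals were 4442775 to 7180221 reads on genes at E12.5 and 6371842 to 8904050 at P0, and the floor of 3 counts corresponds to 0.337 to 0.675 CPM (counting error only).

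Stages were compared in R 4.3.3 with edgeR 4.0.16 (TMM, filterByExpr with a minimum count of 10, robust quasi-likelihood F-test, Benjamini-Hochberg adjustment), with calls made at an adjusted p under 0.05. The filter left 15467 genes. The method was tested on simulated data. Positions and exon lengths came from Gencode M21. Log2 CPM adds a prior count of 2, and ratios of members add 0.5 to each count. All members were named, and in each of the 5 companion lists (80 genes) the 3 genes of highest mean log2 CPM and the 3 largest called rises and falls, as well as the 5 nearest profiles to each member group. Marker genes were named beside their list. Genes named as too low to be tested, and Zeb2 and Cldn11 by litter, were singled out after their values were seen. Of 161 listed genes 160 were found (not Cldn25), and Pals1 is listed under an older symbol. The members and lists were chosen with earlier results of these data known. Alternatives were DESeq2 1.42.0, limma 3.58.1 (voom), other normalizations, no filter, hemoglobin and mitochondrial genes left out, thinned counts, a fold change threshold of 2 and litters left out. Leaving out NPD28 and NPD30 together, and reading levels against notochord markers, were added after the data were seen.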

Additional observations from a re-analysis of the deposited data

Results flagged for a closer look

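Among the E12.5 litters, Dsg2 was unusually low in NPD4, at a log2 CPM of 4.20 where the next litter stood at 5.07, a gap of 0.833 of the range of the 4 litters. Gaps this wide were looked for in 90 sets of 4 litters, of which chance gives about 1 in 20, and this was the single one found. NPD4 also had the lowest sum of notochord markers, 1687 CPM, and the lowest sum of T and Krt8, 365 CPM. Relative to that sum Dsg2 in NPD4 was 4.94%, within the 2.46% to 5.44% of the E12.5 litters. The part of the notochord share in the low value was not tested.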

How the results depend on the processing

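No paired analysis was possible because the labels name different litters at the 2 stages and give no replicate numbers, those used here following accession order only. Between 4 and 6 members were called in the fits that left out 1 litter (27 to 32 companion genes, 3612 to 4529 of all genes). With NDP10-2 and NPD9-2 both left out, 0 members were called, 20 companion genes and 2581 of all genes. The log2 fold changes without both were 2.53 for Dsp, 2.70 for Dsg2, 2.64 for Dsc2, -2.13 for Epcam, -3.39 for Cldn6 and -1.11 for Tjp1, with adjusted p of 0.0886, 0.0569, 0.0535, 0.118, 0.0621 and 0.0868. Leaving out NPD9-2 and NPD30 gave 6 called members and 3907 genes, and NPD28 and NPD30 5 members and 4469 genes. Dsp also lost its call without a filter on low counts (2.13, adjusted p = 0.119) and without NPD28 and NPD30 (0.72). Leaving out 1 litter moved Dsp between 1.42 and 2.40, Dsg2 between 1.92 and 2.84, Dsc2 between 2.02 and 2.85, Epcam between -2.80 and -1.99, Cldn6 between -5.25 and -4.01, Cldn7 between -2.82 and -1.20 and Tjp1 between -1.44 and -0.94. Pkp2 (-0.64 to 0.18) and the ratio of Pkp2 to Jup (-0.66 to 0.41) changed sign on the way (Pkp2 was -1.09 without NPD28 and NPD30), and Jup (-0.39 to -0.06) reached 0.0082 without NPD28 and NPD30. The other tests and normalizations and thinning changed no member's call, but Cldn7 was too low to be tested after thinning. Upper quartile normalization moved the median of all genes from 0.04 to -0.11 (2105 higher and 2322 lower). Of the companions that were not called, Evpl changed sign (0.21 with limma, 1.20 without NDP10-2 and NPD9-2, 0.017 without NPD9-2 and NPD30, and -0.62 to 0.49 without 1 litter), as did Cldn12 (-0.61 to 0.034 without 1 litter), Pals1 (-0.0091 without NDP10-2 and NPD9-2, and -0.14 without NPD28 and NPD30) and Snai1 (0.13 without NDP10-2 and NPD9-2, and -0.87 to 0.084 without 1 litter, and called at -1.48 without NPD28 and NPD30). The cause of these changes was not tested. Depth limits Ocln, Cldn7 and, at P0, Cldn6 and Epcam. It also limits the size of change of companions such as Dsc3, with 12 reads in all at E12.5. At P0, Cldn4 had 14 reads in all, Cldn9 18, Spint1 15, Prss8 10 and Twist2 19.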
